A study of Mus musculus with 5 samples.

Results

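Transcripts of 5 cyclin-dependent kinase inhibitors, 3 D cyclins and the 2 kinases these cyclins bind, 10 genes of the 27678 in the deposited table, were followed in dendritic cells with and without Etv3. The genes were taken by their symbols: Cdkn1a, Cdkn1b and Cdkn1c of the Cip/Kip family, Cdkn2c and Cdkn2d of the INK4 family, Ccnd1, Ccnd2, Ccnd3, Cdk4 and Cdk6. The set was chosen on the normalized counts compared here, with the difference between genotypes known, so its values are a description and carry no p. Libraries came from Etv3-/- mice (3) and Etv3+/+ mice (2), and the comparison addresses what the loss of Etv3, a transcription factor gene of the ETS family, does to these cells. In both genotypes bone marrow was cultured for 6 days with IL-4 at 5 ng/ml and GM-CSF at 20 ng/ml, the cytokines of the usual dendritic cell culture. Viable singlets that were CD11c+, CD11b-intermediate, MHC-II-high and CD115- were then sorted to a purity above 95%. Neither the disrupted part of Etv3, nor the age or strain background of the mice, nor whether replicates are separate animals is given by the labels. Etv3 itself was at 18691, 20416 and 22856 normalized counts in Etv3-/- and at 23050 and 25447 in Etv3+/+ libraries, so the total over the gene does not check the genotype labels, and directions are as labelled.

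D cyclins are made in response to growth factors and bind CDK4 or CDK6, and the complexes phosphorylate the retinoblastoma protein so that E2F factors can switch on the genes of DNA replication. INK4 proteins bind CDK4 and CDK6 and keep D cyclins off them. Cip/Kip proteins inhibit CDK2 complexes, and p21 and p27 also help D cyclins assemble with their kinases. In haematopoietic cells these genes mark the balance between division and exit from the cell cycle during differentiation.

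In Etv3-/- cells the transcript of Cdkn1b, which encodes p27, was lower, at 284 ± 110 normalized counts (SD, n = 3), against 1493 ± 21.9 in Etv3+/+ cells (SD, n = 2). Ccnd3 was higher and Ccnd2 lower in Etv3-/- cells, with a Ccnd3 to Ccnd2 ratio, per length, of 3.08 to 5.08 in Etv3-/- libraries and of 0.799 to 0.871 in Etv3+/+ libraries. Cdkn2c was lower as well, while Cdkn1a, by far the most abundant of the 5 inhibitors, overlapped between the genotypes. All 10 genes were tested among the 13813 genes that reached 10 normalized counts in 2 or more libraries. In that fit (limma on log2(normalized count + 1), adjusted p under 0.05 over all genes), Cdkn1b was the single one of the 10 past the threshold, where 1.19% of all genes tested passed, 0.876% higher and 0.319% lower. Groups did not overlap for 3 of the 10 on the higher side (Cdkn2d, Ccnd3 and Cdk4) and for 3 on the lower side (Cdkn1b, Cdkn2c and Ccnd2), where 16.7% and 19.3% of all genes tested did not overlap on those sides, 36.0% in all. With edgeR on recovered reads 1 of the 10 passed (Cdkn1b), where 1.14% of all genes did. With DESeq2 3 passed (Cdkn1b, Ccnd2 and Ccnd3), where 8.95% of all genes did, and with a correction for GC content and length 2 passed (Cdkn1b and Ccnd3), where 2.34% did. Since the genes were picked with this contrast known, nothing is read from these counts. In bulk RNA, fewer cells with a transcript and less of it per cell cannot be told apart.

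**Figure D1:**
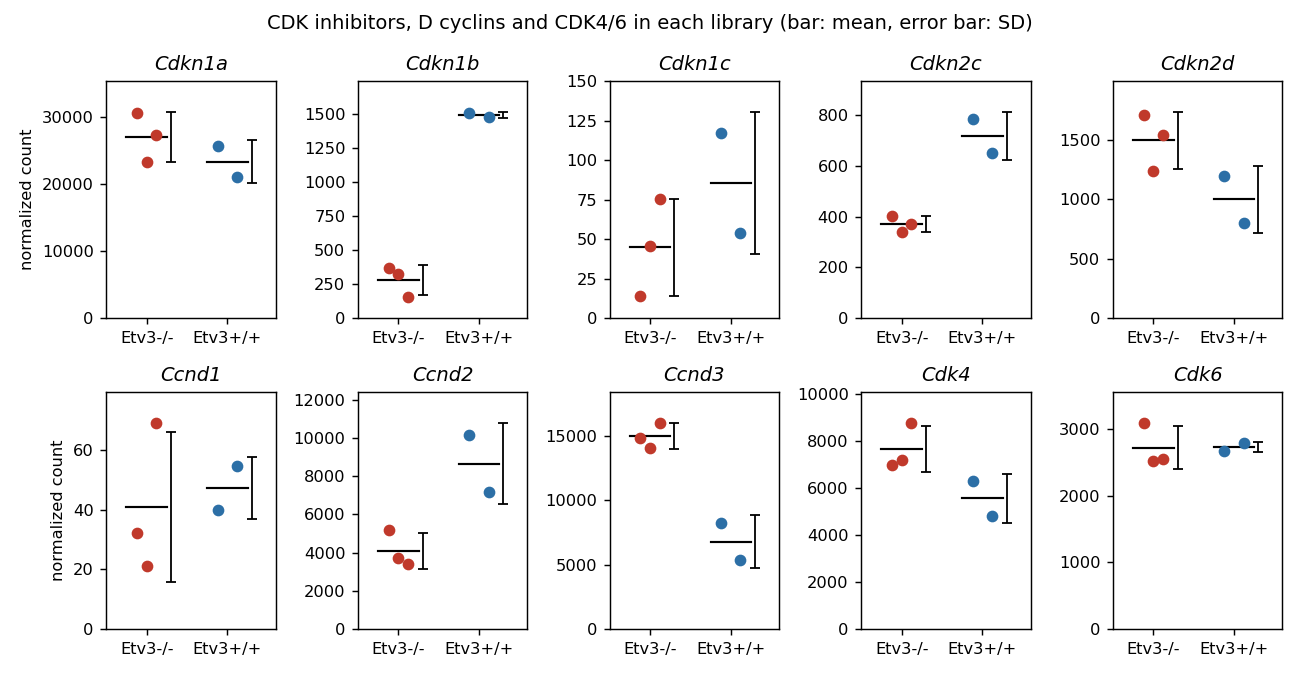
Normalized counts (y axis, linear, from 0) of each of the 10 genes in every library, with Etv3-/- in red and Etv3+/+ in blue; horizontal bars are group means and error bars the SD (n = 3 and n = 2). Cdkn1b, Cdkn2c and Ccnd2 lie lower in all Etv3-/- libraries and Cdkn2d, Ccnd3 and Cdk4 higher, while Cdkn1a, Cdkn1c, Ccnd1 and Cdk6 overlap.

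Promoter sequences are shown for Cdkn1b, as the gene with the largest difference, for both annotated starts of Ccnd3, as the D cyclin that was higher, and for Cdk4, as its kinase. They are RefSeq windows on GRCm38.p6, 250 bases before to 50 after a start, and 7 of the 10 genes had 10 such windows between them. Capitals mark matches, on both strands, to the letters CCGGAA (the core that ETS factors bind), GTAAACA (FOXO), TTTNGCGC (E2F) and CACGTG (the E-box bound by MYC and related factors).
Cdkn1b, chr6:134920151-134920450, plus strand: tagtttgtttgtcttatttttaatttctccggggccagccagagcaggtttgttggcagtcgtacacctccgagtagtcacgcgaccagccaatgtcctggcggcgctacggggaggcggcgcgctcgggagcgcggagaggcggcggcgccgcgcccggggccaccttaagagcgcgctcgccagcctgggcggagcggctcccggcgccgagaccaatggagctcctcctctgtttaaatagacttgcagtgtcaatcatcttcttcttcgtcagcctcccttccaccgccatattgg
Ccnd3, first start, chr17:47504801-47505100, plus strand: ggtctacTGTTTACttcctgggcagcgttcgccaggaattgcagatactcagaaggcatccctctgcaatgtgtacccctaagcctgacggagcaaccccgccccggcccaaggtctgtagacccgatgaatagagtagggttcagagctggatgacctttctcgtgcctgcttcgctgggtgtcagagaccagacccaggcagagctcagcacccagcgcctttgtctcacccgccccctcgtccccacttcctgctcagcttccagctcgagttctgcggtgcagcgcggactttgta
Ccnd3, second start, chr17:47593217-47593516, plus strand: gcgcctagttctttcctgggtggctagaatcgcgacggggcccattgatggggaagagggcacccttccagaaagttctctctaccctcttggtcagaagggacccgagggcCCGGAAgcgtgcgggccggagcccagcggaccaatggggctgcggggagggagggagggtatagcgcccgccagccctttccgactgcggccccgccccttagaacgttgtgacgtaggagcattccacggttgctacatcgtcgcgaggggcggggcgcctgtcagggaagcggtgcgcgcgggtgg
Cdk4, chr10:127063285-127063584, plus strand: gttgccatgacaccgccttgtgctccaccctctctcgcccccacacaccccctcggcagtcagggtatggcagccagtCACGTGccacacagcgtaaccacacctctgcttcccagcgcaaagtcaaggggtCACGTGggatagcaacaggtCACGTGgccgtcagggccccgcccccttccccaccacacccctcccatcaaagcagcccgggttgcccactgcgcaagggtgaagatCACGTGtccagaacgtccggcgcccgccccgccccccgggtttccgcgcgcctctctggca
The Cdk4 window held 4 E-boxes, and 7.15% of the 32851 RefSeq promoter windows of this length held at least 1. Of the windows not printed, 1 of Cdkn2c and that of Cdk6 held 1 E-box each, and those of Cdkn1a and Cdkn2d held none of the 4 motifs. At the second Ccnd3 start there was 1 CCGGAA, which occurred in 14.9% of all windows, and at the first start 1 FOXO match on the minus strand, which occurred in 3.65%. No match to any of the 4 motifs lay in the Cdkn1b window, where TTTNGCGC occurred in 1.38% of all windows. In the printed sequences no matches overlapped. A match describes letters and not a bound site, and a window without one shows only that these letters are not in it.

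Among the Cip/Kip inhibitors, Cdkn1b (p27, which restrains CDK2 and holds differentiating cells out of the cycle; chromosome 6, 134920401 to 134925513, GRCm38) was at 367, 327 and 159 normalized counts in Etv3-/- libraries, against 1509 and 1478 in Etv3+/+ libraries. Both Etv3+/+ values lay close together, and every Etv3-/- value was far below them. The ratio of means was 5.26-fold lower, and the log2 fold change was -2.48 (SE 0.44). It was between -2.71 and -2.11 when any single library was left out, and none of those 5 fits kept the call. Of the 19 alternative settings 8 kept it, and it also ended with a pseudocount of 0.5 and with no filter on low values. With a correction for GC content and transcript length the log2 fold change of Cdkn1b was -2.11.

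Cdkn1a (p21, the inhibitor best known as a p53 target; chromosome 17, 29090976 to 29100727) had 30687, 23294 and 27387 normalized counts in Etv3-/- libraries, against 25685 and 21153 in Etv3+/+ libraries. The groups overlapped, and the log2 fold change was 0.21 (SE 0.22), or 0.0023 with the GC and length correction. Cdkn1c (p57, the imprinted member of the family) was near the low end of detection, with 13.98, 45.8 and 75.4 normalized counts in Etv3-/- libraries, against 117 and 53.9 in Etv3+/+ libraries. Those groups overlapped as well, with a log2 fold change of -1.10 (SE 0.97). Within each library, per length, Cdkn1a exceeded Cdkn1b 91.3-fold to 221-fold in Etv3-/- cells and 18.3-fold to 21.8-fold in Etv3+/+ cells.

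The INK4 pair split. Cdkn2c (p18, an INK4 inhibitor that limits the expansion of blood progenitors in mice; chromosome 4, 109660876 to 109667189) had 402, 338 and 370 normalized counts in Etv3-/- libraries, against 785 and 652 in Etv3+/+ libraries. No Etv3-/- value reached the Etv3+/+ range, and the log2 fold change was -0.95 (SE 0.35). Cdkn2d (p19, another INK4 inhibitor; chromosome 9, 21288410 to 21291407) had 1707, 1237 and 1542 in Etv3-/- libraries, against 1198 and 801 in Etv3+/+ libraries. The lowest Etv3-/- value lay only just above the highest Etv3+/+ value, and the log2 fold change was 0.60 (SE 0.30), or 0.32 with the GC and length correction. The ratio of Cdkn2d to Cdkn2c within a library, per length, was 7.24, 6.24 and 7.11 in Etv3-/- cells and 2.604 and 2.096 in Etv3+/+ cells.

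Among the D cyclins, which activate CDK4 and CDK6, Ccnd3 was higher and Ccnd2 lower. Ccnd3 (cyclin D3, a D cyclin needed in developing lymphocytes and erythroid cells of mice; chromosome 17, 47505051 to 47599691) had 14860, 14072 and 16053 normalized counts in Etv3-/- libraries, against 8272 and 5333 in Etv3+/+ libraries. Its Etv3-/- values were tightly grouped and all above both Etv3+/+ values, which differed more between themselves. The log2 fold change was 1.17 (SE 0.24), between 0.86 without Etv3+/+ replicate 2 and 1.49 without Etv3+/+ replicate 1, and 1.05 with the GC and length correction. Ccnd2 (cyclin D2, induced by many cytokines; chromosome 6, 127125162 to 127152193) had 5176, 3698 and 3390 in Etv3-/- libraries, against 10188 and 7158 in Etv3+/+ libraries. Each Etv3-/- value was below both Etv3+/+ values, with a log2 fold change of -1.09 (SE 0.27), or -0.91 with the GC and length correction. Ccnd1 (cyclin D1, a D cyclin prominent in epithelial and mesenchymal cells; chromosome 7, 144929931 to 144939925) was barely transcribed in either genotype, at 32.3, 21.1 and 69.3 normalized counts in Etv3-/- libraries, against 40.1 and 54.8 in Etv3+/+ libraries. Its groups overlapped, with a log2 fold change of -0.36 (SE 0.90).

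Expressed per kilobase of annotated exon, Ccnd3 made up 75.3%, 80.1% and 83.0% of the D cyclin level in Etv3-/- libraries, against 46.3% and 44.0% in Etv3+/+ libraries. Ccnd2 made up 24.4%, 19.6% and 16.3% in Etv3-/- libraries, against 53.2% and 55.1% in Etv3+/+ libraries. These shares do not depend on how libraries were scaled against each other. They do depend on the lengths used, 8775 bases for Ccnd3 and 9409 for Ccnd2. Each length covers all annotated exons of the gene and may exceed that of the transcripts present. Which of the 2 cyclins was the more abundant in a library is therefore uncertain. The difference between genotypes in their log2 ratio does not depend on the lengths chosen. The log2 ratio of Ccnd3 to Ccnd2 was 2.00 ± 0.36 in Etv3-/- libraries (SD, n = 3), against -0.26 ± 0.09 in Etv3+/+ libraries (SD, n = 2), and the difference of 2.26 was between 2.09 and 2.45 with any single library left out. The correction for GC content and length was not applied to this ratio. With that correction the log2 fold change was 1.05 for Ccnd3 and -0.91 for Ccnd2, against 1.17 and -1.09 without it. The sum of the 3 D cyclins per kilobase moved less, at 2250, 2001 and 2204 normalized counts in Etv3-/- libraries, against 2034 and 1380 in Etv3+/+ libraries, and those groups overlapped.

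**Figure D2:**
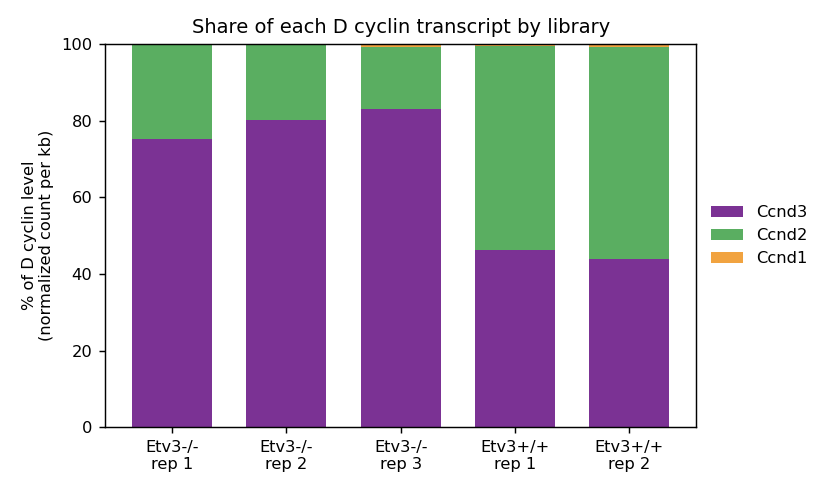
Share of Ccnd3, Ccnd2 and Ccnd1 in the summed D cyclin level (y axis, percent, from normalized counts per kilobase of all annotated exons), with a stacked bar for each library. Ccnd3 holds 75.3% to 83.0% in the Etv3-/- libraries and 44.0% to 46.3% in the Etv3+/+ libraries, while Ccnd1 is under 1% in all.

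The partner kinases differed less. Cdk4 (chromosome 10, 127063534 to 127067920) had 6946, 7198 and 8766 normalized counts in Etv3-/- libraries, against 6284 and 4819 in Etv3+/+ libraries. The groups did not overlap, although the lowest Etv3-/- and the highest Etv3+/+ value were close, and the log2 fold change was 0.47 (SE 0.22), or 0.26 with the GC and length correction. Cdk6 (chromosome 5, 3341485 to 3531008), the kinase that also acts in transcription in blood cells, had 3102, 2529 and 2554 in Etv3-/- libraries, against 2678 and 2790 in Etv3+/+ libraries. Its log2 fold change was -0.01 (SE 0.22), and its sign differed in 11 of 19 alternative settings, among them TMM scaling (0.05) and the GC and length correction (0.40).

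Ranked by level per kilobase, the order in Etv3-/- cells was Cdkn1a (7634 ± 1042, SD), Cdk4 (2350 ± 304), Ccnd3 (1709 ± 114), Cdkn2d (950 ± 151), Ccnd2 (434 ± 101), Cdk6 (195 ± 23.2), Cdkn2c (138 ± 11.9), Cdkn1b (62.4 ± 24.3), Cdkn1c (22.1 ± 15.1) and Ccnd1 (8.68 ± 5.36), n = 3 each. Libraries of neighbours in that order overlapped only for Cdkn1b with Cdkn1c and for Cdkn1c with Ccnd1. In Etv3+/+ cells the order was Cdkn1a (6591 ± 902), Cdk4 (1709 ± 319), Ccnd2 (922 ± 228), Ccnd3 (775 ± 237), Cdkn2d (635 ± 178), Cdkn1b (328 ± 4.82), Cdkn2c (267 ± 34.9), Cdk6 (195 ± 5.67), Cdkn1c (42.0 ± 22.03) and Ccnd1 (10.1 ± 2.21), n = 2 each. There the ranges over libraries overlapped for Ccnd2 with Ccnd3 and for Ccnd3 with Cdkn2d. Within each library their order was the same. Ccnd2, Ccnd3 and Cdkn2d were at 1083, 943 and 761 in Etv3+/+ replicate 1, and at 761, 608 and 509 in replicate 2. Orders, percentiles, sums and ratios between genes rest on the length of all annotated exons of each gene. They could differ with the lengths of the transcripts present. Cdkn1a stood at the 96.5th to 97.9th percentile of the 13609 tested genes with a length, whatever the library. Cdkn1b stood at the 23.9th to 33.9th percentile in Etv3-/- libraries and at the 57.7th to 57.9th in Etv3+/+ libraries. The 5 inhibitors summed to 4.43, 3.78 and 4.04 times the 3 D cyclins in Etv3-/- libraries and to 4.26 and 5.11 times in Etv3+/+ libraries, and Cdkn1a made up 83.4% to 86.7% of that inhibitor sum in every library. Without Cdkn1a, the other 4 inhibitors summed to 0.587, 0.503 and 0.540 times the D cyclins in Etv3-/- libraries, against 0.709 and 0.799 in Etv3+/+ libraries. These sums leave out Cdkn2b, a further INK4 gene, which was at 894, 822 and 1165 normalized counts per kilobase in Etv3-/- libraries, against 3025 and 2399 in Etv3+/+ libraries. With Cdkn2b added to the 4, the ratio was 0.984, 0.914 and 1.07 in Etv3-/- libraries, against 2.20 and 2.54 in Etv3+/+ libraries. That ratio leaves out Cdkn1a, the largest part of the inhibitor sum, and adds a gene called lower in the same comparison. The 5 inhibitors with Cdkn1a summed to 9959, 7562 and 8898 per kilobase in Etv3-/- libraries, against 8671 and 7056 in Etv3+/+ libraries. A ratio with both Cdkn1a and Cdkn2b was not computed.

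Several of these genes overlap another gene on the opposite strand, and if strand was not used in counting their reads cannot be told apart. Ccnd3 overlaps Bysl, a ribosome assembly gene, over 361 bases, and Bysl had 1139, 1529 and 1177 normalized counts in Etv3-/- libraries, against 624 and 530 in Etv3+/+ libraries. Ccnd3 itself differed by 8192 normalized counts between group means. Cdk4 overlaps Tspan31 over 641 bases, and Tspan31 was at 4636 ± 165 (SD, n = 3) in Etv3-/- and 2957 ± 10.6 (SD, n = 2) in Etv3+/+ cells, while the difference in mean Cdk4 was 2086. Ccnd2 overlaps the antisense gene 9330179D12Rik, at 464 ± 137 in Etv3-/- and 866 ± 9.98 in Etv3+/+ cells, against a difference in mean Ccnd2 of 4585. Ccnd1 overlaps LTO1, at 1034, 1409 and 1217 in Etv3-/- and 1122 and 852 in Etv3+/+ libraries, and Cdkn1a, Cdkn1c and Cdk6 overlap opposite-strand genes for which no counts were used here. The pseudogene Ccnd3-ps was at 11.8 to 18.4 in Etv3-/- and 9.32 to 10.3 in Etv3+/+ libraries, far below Ccnd3. No gene of the annotation overlaps Cdkn1b, Cdkn2c or Cdkn2d. The part of overlapping genes in these differences was not tested.

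Genes around the 10 were taken from 11 lists of cell cycle regulators and their inputs, with 230 distinct tested genes. Of these, 1 rose and 2 fell (limma, adjusted p under 0.05), 0.435% and 0.870%, beside 0.876% and 0.319% of all genes tested. Their median log2 fold change was -0.22, beside -0.06 over all genes tested. An unadjusted limma p under 0.05 was reached by 63 of the 230 (27.4%), beside 18.0% of all genes tested, and edgeR called 3 and DESeq2 29. Cdkn2b, the INK4 inhibitor p15 (chromosome 4, 89306299 to 89311039), fell to 1242, 1143 and 1619 normalized counts in Etv3-/- libraries, against 4204 and 3335 in Etv3+/+ libraries. The groups were well apart, with a log2 fold change of -1.50 (SE 0.26, limma adjusted p = 0.0440), but none of the 5 fits without a library kept the call (log2 fold change -1.67 to -1.34). It was called in 8 of 19 alternative settings, and not with TMM or quantile scaling, with edgeR, without a filter on low values, or in limma without trend. Among 22 further CDK inhibitors, cyclins and kinases limma called Cdkn2b alone, edgeR called 1 other gene and DESeq2 5, and 6 were at an unadjusted p under 0.05. Cdkn2a, the INK4 and ARF gene beside it, was low in both genotypes, at 27.97, 18.6 and 49.98 normalized counts in Etv3-/- and 69.0 and 47.1 in Etv3+/+ libraries. Ccne1 (cyclin E1, the CDK2 partner that acts after the D cyclins) was at 1711, 1765 and 1528 in Etv3-/- libraries, against 606 and 631 in Etv3+/+ libraries. Its log2 fold change of 1.43 did not pass (SE 0.26, limma adjusted p = 0.0518), and it passed in 7 of 19 alternative settings. Of the 22 genes 15 had a negative and 7 a positive log2 fold change. Groups did not overlap for 7 on the lower side and 1, Ccne1, on the higher side, beside 19.3% and 16.7% of all genes tested. Among the lower ones that did not pass were Ccng2 (log2 fold change -1.20, limma adjusted p = 0.0577) and Wee1 (-1.40, limma adjusted p = 0.119). Cdkn2a, Ccne1, Ccng2 and Wee1 were singled out after their values were seen.

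The list for p27 turnover and localization had 0 of 23 genes called with limma and 0 with edgeR, 2 with DESeq2, and 8 (34.8%) at an unadjusted p under 0.05, beside 18.0% of all genes tested. Skp2, the ubiquitin ligase subunit that targets p27 for degradation, belongs to it and was singled out after its values were seen. It had 135, 311 and 37 reads in Etv3-/- libraries, against 0 and 2 reads in Etv3+/+ libraries, or 145, 385 and 32.4 normalized counts in Etv3-/- and 0 and 1.71 in Etv3+/+ libraries. The groups did not overlap, the Etv3-/- libraries differed widely among themselves, and Skp2 did not pass (limma adjusted p = 0.0761), although it did in 3 of 19 alternative settings. Lmbrd2 overlaps Skp2 on the opposite strand outside its exons. Most of the list went the other way, with a negative log2 fold change for 16 of 23 genes and a positive one for 7. Groups did not overlap for 8 on the lower and 3 on the higher side, beside 19.3% and 16.7% of all genes tested. Among the 8 were Skp1a, at 9692 ± 1372 in Etv3-/- and 14346 ± 3147 in Etv3+/+ cells, and Cks1b, at 863 ± 122 and 1396 ± 36.3. The 2 genes of that list with the highest mean normalized count over the 5 libraries, with no regard to length, were Ddb1, an adaptor of CUL4 ligases, at 21432 ± 803 in Etv3-/- and 20178 ± 3175 in Etv3+/+ cells, and the kinase gene Akt1, at 19042 ± 3107 in Etv3-/- and 22299 ± 5457 in Etv3+/+ cells. On the D cyclin turnover list 0 of 13 genes were called with limma, edgeR or DESeq2, and 1 was at an unadjusted p under 0.05. By the same measure the first 2 genes of that list were Fzr1, an activator of the anaphase-promoting complex, at 9428 ± 2105 in Etv3-/- and 8332 ± 2048 in Etv3+/+ cells, and Anapc1, a subunit of that complex, at 6823 ± 596 in Etv3-/- and 5850 ± 892 in Etv3+/+ cells.

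On the lists of replication, mitosis and E2F regulators limma and edgeR called no gene and DESeq2 1 on each, and 18.0% of all genes tested were at an unadjusted p under 0.05. Of 23 genes of the G1/S transition and replication, 0 passed with limma and edgeR and 1 with DESeq2 (7, or 30.4%, at an unadjusted p under 0.05, median log2 fold change -0.28). Groups did not overlap for 8 of the 23 on the lower and 2 on the higher side. For the 21 mitosis genes these counts were 1 and 4. Of all genes tested, 19.3% and 16.7% did not overlap on those sides. Mcm6, a subunit of the replicative helicase, was at 7135 ± 618 in Etv3-/- and 10188 ± 1015 in Etv3+/+ cells, and Mcm3, another subunit, at 6287 ± 924 in Etv3-/- and 4850 ± 455 in Etv3+/+ cells. Of 21 mitosis genes, 0 passed with limma and edgeR and 1 with DESeq2 (3, or 14.3%, at an unadjusted p under 0.05, median -0.05), the centromeric histone gene Cenpa was at 1834 ± 278 in Etv3-/- and 1931 ± 524 in Etv3+/+ cells, and the topoisomerase gene Top2a was at 1203 ± 361 in Etv3-/- and 1421 ± 155 in Etv3+/+ cells. For the 18 pocket protein, E2F and DREAM genes the counts were 0, 0 and 1, with 4 (22.2%) at an unadjusted p under 0.05 and a median of -0.20. Rbbp4, a histone-binding subunit shared by DREAM and other complexes, was at 18399 ± 1055 in Etv3-/- and 17086 ± 1966 in Etv3+/+ cells, and Rbl2, the pocket protein p130 of resting cells, was at 7168 ± 1081 in Etv3-/- and 6669 ± 542 in Etv3+/+ cells. Groups did not overlap for 7 of the 18 on the lower and 0 on the higher side, beside 19.3% and 16.7% of all genes tested. Among the 7 was Rb1, the retinoblastoma protein gene, singled out after its values were seen. It was at 3439 ± 1404 in Etv3-/- and 8694 ± 2440 in Etv3+/+ cells and did not pass (log2 fold change -1.41, SE 0.40, limma adjusted p = 0.139).

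Among upstream inputs, 1 of 27 genes on the list of p53 and its targets passed, the death receptor gene Fas, which fell to 1309, 1659 and 1289 normalized counts in Etv3-/- libraries, against 8515 and 11332 in Etv3+/+ libraries (log2 fold change -2.80, SE 0.24, limma adjusted p = 0.00765). The list's median was -0.48, with 8 genes (29.6%) at an unadjusted p under 0.05, beside 18.0% of all genes tested, 1 called by edgeR and 2 by DESeq2. Fas lost its call without Etv3-/- replicate 1 or 2 (log2 fold change -2.75 and -2.92), and kept it in 16 of 19 alternative settings. On the list of growth factor and MYC inputs to D cyclins 1 of 28 passed, Fos of AP-1, which rose to 6340, 6201 and 5615 in Etv3-/- libraries, against 1715 and 1764 in Etv3+/+ libraries (log2 fold change 1.80, SE 0.20, limma adjusted p = 0.0135). Fos lost its call without Etv3+/+ replicate 1 (log2 fold change 1.78) and without any of the 3 Etv3-/- libraries (1.76 to 1.85), and also in limma without trend with all libraries kept. Of 19 alternative settings 13 kept it, and on its list 9 genes (32.1%) were at an unadjusted p under 0.05, with 1 called by edgeR and 5 by DESeq2. For the FOXO list 0 of 22 passed with limma and edgeR and 6 with DESeq2 (9, or 40.9%, at an unadjusted p under 0.05). Il7r, a cytokine receptor gene on that list, was at 15741, 22165 and 9698 in Etv3-/- and 23798 and 55054 in Etv3+/+ libraries. The antiproliferative list had 0 of 23 called with limma and edgeR, 4 with DESeq2 and 7 (30.4%) at an unadjusted p under 0.05, and Btg1 was at 97043 ± 15510 in Etv3-/- and 151525 ± 6805 in Etv3+/+ cells, and Id2 at 85425 ± 16579 in Etv3-/- and 120152 ± 40283 in Etv3+/+ cells. For ETS factors the same counts over 17 genes were 0, 0, 3 and 4, and Etv6 was at 11587 ± 719 in Etv3-/- and 13546 ± 1890 in Etv3+/+ cells.

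**Figure D3:**
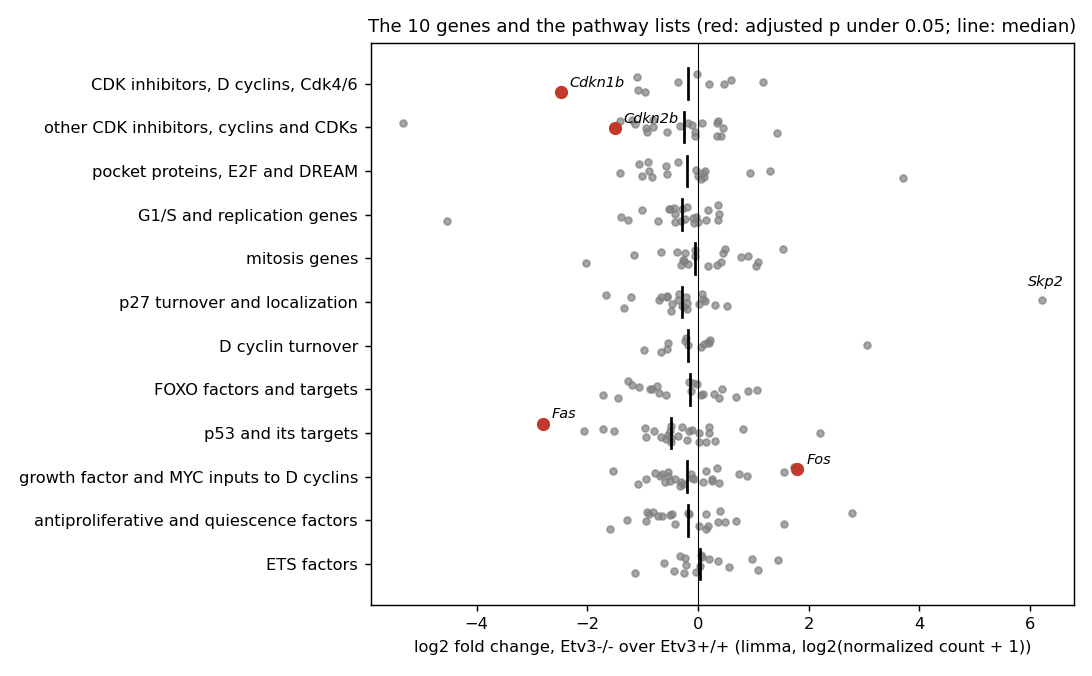
Log2 fold change, Etv3-/- over Etv3+/+ (x axis), of the 10 genes in the top row and of each pathway list below, with a point per tested gene and a vertical line at each median; red points passed an adjusted p of 0.05. Cdkn1b, Cdkn2b, Fas and Fos are the red points, and Skp2 lies farthest right without passing.

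The genes whose pattern over the 5 libraries lay nearest to Cdkn1b, among 11387 candidates with a mean of at least 50 normalized counts, were Aff3, Jag1, Lysmd2, Ccp110 and Zfp125. The root mean square distance between centred log2 values was 0.24, 0.27, 0.30, 0.32 and 0.36 in that order. Jag1, a Notch ligand, was at 161 ± 33.3 in Etv3-/- and 1017 ± 193 in Etv3+/+ cells, and Ccp110, which caps centrioles, at 107 ± 56.3 in Etv3-/- and 420 ± 49.3 in Etv3+/+ cells. Zfp125 overlaps a pseudogene on the same strand, and its value is uncertain for that reason.

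Recovered depth was 42983550 to 59694413 reads in Etv3-/- libraries and 56445754 to 68253936 in Etv3+/+ libraries, so that Cdkn1b rested on at least 181 reads in every library. Mitochondrial genes held 2.31%, 3.17% and 1.10% of normalized counts in Etv3-/- libraries. They held 1.98% in Etv3+/+ replicate 1 and 6.64% in Etv3+/+ replicate 2. Across genes, a library's deviation from the gene mean had a Spearman correlation with GC content between -0.10 and 0.41 in Etv3-/- libraries, highest in replicate 3, and of 0.04 and -0.42 in Etv3+/+ replicates 1 and 2. Transcripts of Ccnd3 and Cdkn2c hold 56.7% and 58.0% GC, and those of Cdkn1b and Ccnd2 43.1% and 47.1%. The sorted cells carried dendritic cell markers, whose 13 genes summed to 2632935 to 3483649 normalized counts in Etv3-/- and 1410085 to 1921983 in Etv3+/+ libraries, with Ciita alone called by limma, higher, and 2 genes called by edgeR and 5 by DESeq2. On the macrophage and monocyte list 3 of 13 genes rose in limma (C1qa, C1qb and C1qc; 3 called by edgeR, 8 by DESeq2), and the sum was 57993 to 77740 in Etv3-/- and 35736 to 36983 in Etv3+/+ libraries. The B cell list summed to 4339 to 6491 in Etv3-/- and 2144 to 2382 in Etv3+/+ libraries, and the T and NK cell list to 3303 to 8722 in Etv3-/- and 11642 to 12988 in Etv3+/+ libraries, with 0 called on either with limma and edgeR, 3 and 1 with DESeq2, and 4 of 10 and 4 of 11 at an unadjusted p under 0.05, beside 18.0% of all genes tested. Sums of the neutrophil (16626 to 77437 in Etv3-/-, 53915 to 56639 in Etv3+/+), mast cell and basophil (12200 to 18548 in Etv3-/-, 11575 to 19916 in Etv3+/+), progenitor (2403 to 3297 in Etv3-/-, 2541 to 3177 in Etv3+/+) and erythroid lists (14.9 to 49.5 in Etv3-/-, 16.3 to 81.1 in Etv3+/+) overlapped between genotypes. Ncr1, Erg, Hba-a2 and Alas2 were at 0 in all libraries. The part of these cells in the differences above was not tested.

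**Figure D4:**
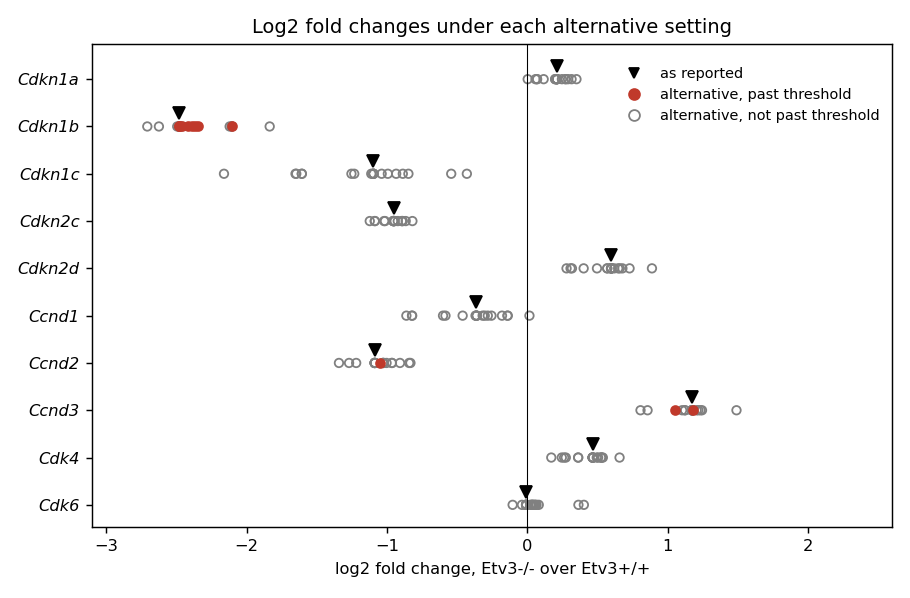
Log2 fold change, Etv3-/- over Etv3+/+ (x axis), of each of the 10 genes as reported (black triangles) and under 19 alternative settings (circles, red where the adjusted p was under 0.05). Cdkn1b lies between -2.71 and -1.84 and passes in 8 of 19, Ccnd3 lies between 0.81 and 1.49, and Cdk6 lies on both sides of 0.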

How the data were processed

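The authors deposited normalized gene counts for 27678 gene symbols in 5 libraries: a signal, in which reads per gene were rescaled library by library. Libraries of sorted-cell RNA were made with SMART-Seq HT chemistry, per the labels' protocols. Tools named in the submitters' processing notes are STAR 2.7.3a, Trimmomatic 0.36, DESeq2 1.26.0, Subread 1.6.3 and featureCounts, and the build mm10. Their roles, the annotation and the strand setting were not given in the sources. Reads were recovered by dividing by the step of each library (0.856 to 1.24), and 100% of values then lay within 0.1 of whole numbers. PCR copies cannot be told from molecules.

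Groups came from the titles. Since no label ties replicates to separate animals or cultures, p-values measure only sample-to-sample spread, which may be technical. Genes with 10 or more normalized counts in at least 2 libraries were tested with limma 3.58.1 (R 4.3.3; eBayes with trend, two-sided) on log2(normalized count + 1), genotype as the single term, Benjamini-Hochberg adjustment over all 13813 genes, at 0.05. The added 1 compresses log2 differences between libraries for low genes. Positions and exon lengths came from GENCODE M21 (same assembly as mm10), promoters from RefSeq. The exon length of a gene covers all its annotated exons, whichever transcripts were present.

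The members and lists were chosen with earlier results of these data known. Named were the 10 genes, Etv3, up to 4 called genes per list by absolute change or else the 2 with the highest mean, and the 5 nearest patterns to Cdkn1b; some of these values are not reported here. Pseudocount, filter, scaling and limma's trend and robust options were varied. Recovered reads were tested with DESeq2 1.42.0 and edgeR 4.0.16, a replicate block was added, and each library was left out. The GC and length correction (local regression, span 0.3), also with the block, and leaving out Etv3-/- replicate 3 together with Etv3+/+ replicate 2 were chosen after seeing the data. The procedure was tested on simulated data. Figures were drawn with matplotlib 3.10.9.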

Additional observations from a re-analysis of the deposited data

How the results depend on the processing

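Cdkn1b kept its sign under all 19 alternatives (log2 fold change -2.71 to -1.84) and its call in 8. All settings refit the same libraries, and Cdkn1b was chosen with this contrast known. These counts describe the calculation and are not separate evidence for the difference. With 1 of the 10 genes, 121 genes higher, 44 lower and 3 pathway genes called as reported, 0 of the 10 were called with a pseudocount of 0.5, with no filter on low values, and in limma without trend (44 genes higher); the cause was not tested. With a pseudocount of 5, 70 genes were lower and 5 pathway genes called, and 5 pathway genes with a filter of 50. DESeq2 called 644 genes higher and 544 lower (8.95% of genes with an adjusted p), 3 of the 10 (Ccnd2, Ccnd3 and Cdkn1b) and 29 pathway genes. With the replicate block 151 genes were higher and 118 lower, with 0 of the 10 and 6 pathway genes. Etv3-/- replicate 3 is alone in its block and adds nothing to the genotype term there. The log2 fold changes therefore equal those of the fit without it (Cdkn1b -2.11 in both), and the 2 settings are not separate checks of them. Deviations of libraries sharing a number correlated at -0.03 and 0.04, and Etv3-/- replicate 3 has no partner. The deviations of 2 Etv3+/+ libraries from their mean mirror each other, so these correlations are not separate checks. They cannot decide whether a shared number pairs libraries, and pairing is not shown. Without a single library, the counts were 0 to 73 genes higher, 0 to 7 lower, 0 of the 10 and 0 to 3 pathway genes: 0 and 0 genes without Etv3-/- replicate 1, 2 and 0 without replicate 2, 7 and 3 without replicate 3, 50 and 4 without Etv3+/+ replicate 1, and 73 and 7 without replicate 2. These fits have fewer samples, and a lone Etv3+/+ library is assumed to vary like the others; without Etv3-/- replicate 1, 1885 genes had an unadjusted p under 0.05. The GC and length correction gave 219 and 100 genes, 2 of the 10 (Ccnd3 and Cdkn1b; 2.34% of all genes) and 6 pathway genes, or 64 and 22 genes and 0 of the 10 with the replicate block. Omitting Etv3-/- replicate 3 and Etv3+/+ replicate 2 together left 6 and 1 genes, 0 of the 10 and 0 pathway genes. Ccnd1 changed sign in 1 setting and Cdk6 in 11, both uncalled. Depth limits Cdkn1c and Ccnd1 most.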
